A study of Homo sapiens with 12 samples.

Results

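The AP-1 transcription factor genes were examined as 10 loci of the human genome: FOS, FOSB, FOSL1 and FOSL2 (the FOS family), JUN, JUNB and JUND (the JUN family), and ATF3, BATF and BATF3. The members are named by family and not by a threshold on a measured value, though earlier results of these data were known when the family was chosen, and each was given a window from 20 kb before to 20 kb after its span in the RefSeq gene table of GRCh38. These are 10 of 59098 gene windows. Peaks came from ATAC-seq, which maps open chromatin by where the Tn5 transposase can cut and tag it. The cells were MIAPaCa2, a cell line from a pancreatic ductal adenocarcinoma. A parental population and an oxamate-resistant one derived from it were each profiled untreated and treated, with 3 libraries in each of the 4 groups; oxamate blocks lactate dehydrogenase A. All groups shared the same line, so the parental cells are the only source of the resistant population, and the resistant cells are 1 selected population and not several independent ones. Whether the 3 libraries of a group came from separate cultures is not given, and p-values measure the spread between these libraries, which may be technical. Treated refers to the label of that name; in both cell types the agent was oxamate.

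AP-1 is a dimer of basic leucine zipper proteins. JUN proteins pair with themselves, with FOS proteins or with ATF and BATF proteins, whereas FOS proteins need a JUN partner, and the dimers bind a short palindrome in promoters and enhancers. FOS, FOSB, JUN, JUNB and ATF3 are immediate early genes that are switched on within minutes of growth factor or stress signals through MAP kinases, and FOSL1 and FOSL2 are later targets of the same route. FOSL1 and JUN are known AP-1 subunits of pancreatic cancer cells. Peak lists show where chromatin was open, not how much RNA or protein the genes made.

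The sequences upstream of the starts are shown first, because the starts differed in whether a peak was called. RefSeq (GRCh38.p14) lists a promoter for 8 of the 10 members, with 2 starts for ATF3, and the 250 bases before the start are given for 6 of these starts, 5′ to 3′ on the strand of the gene. Capitals mark matches, on either strand, to TGACTCA (the AP-1 site, or TRE), TGACGTCA (the cAMP response element, or CRE), TGACATCA (the variant known from the JUN promoter), TGACG (the first bases of the CRE), TATAAA and CCAAT.
JUN, chr1:58784048-58784297, minus strand: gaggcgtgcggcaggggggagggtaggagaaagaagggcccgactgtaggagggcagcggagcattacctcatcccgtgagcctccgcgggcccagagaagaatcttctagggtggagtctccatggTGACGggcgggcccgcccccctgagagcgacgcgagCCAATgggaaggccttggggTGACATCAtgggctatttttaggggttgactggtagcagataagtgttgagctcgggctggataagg
JUND, chr19:18281623-18281872, minus strand: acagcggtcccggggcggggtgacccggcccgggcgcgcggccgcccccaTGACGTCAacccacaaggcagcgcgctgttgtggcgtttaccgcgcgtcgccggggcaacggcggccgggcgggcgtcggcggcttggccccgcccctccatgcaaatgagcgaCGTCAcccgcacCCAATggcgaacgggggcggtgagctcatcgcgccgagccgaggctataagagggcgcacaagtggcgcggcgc
FOS, chr14:75278578-75278827, plus strand: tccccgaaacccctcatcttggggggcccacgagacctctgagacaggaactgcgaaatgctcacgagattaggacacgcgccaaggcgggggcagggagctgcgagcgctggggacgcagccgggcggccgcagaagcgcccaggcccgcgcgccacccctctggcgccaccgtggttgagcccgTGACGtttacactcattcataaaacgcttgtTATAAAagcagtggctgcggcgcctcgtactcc
FOSB, chr19:45467746-45467995, plus strand: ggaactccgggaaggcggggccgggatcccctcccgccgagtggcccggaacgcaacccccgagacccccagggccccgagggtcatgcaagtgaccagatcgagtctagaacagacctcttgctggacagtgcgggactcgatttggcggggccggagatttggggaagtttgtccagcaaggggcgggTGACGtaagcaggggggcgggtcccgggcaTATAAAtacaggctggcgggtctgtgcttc
ATF3, first listed start, chr1:212565157-212565406, plus strand: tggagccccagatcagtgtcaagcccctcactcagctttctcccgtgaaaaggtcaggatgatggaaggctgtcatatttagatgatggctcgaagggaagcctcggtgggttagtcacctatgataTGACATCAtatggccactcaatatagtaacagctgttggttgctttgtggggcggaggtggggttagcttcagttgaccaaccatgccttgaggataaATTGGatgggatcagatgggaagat
BATF, chr14:75522219-75522468, plus strand: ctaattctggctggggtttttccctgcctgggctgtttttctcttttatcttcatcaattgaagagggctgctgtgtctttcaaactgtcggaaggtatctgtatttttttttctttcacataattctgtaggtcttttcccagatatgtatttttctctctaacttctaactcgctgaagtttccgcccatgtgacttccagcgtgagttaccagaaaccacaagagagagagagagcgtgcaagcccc

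Counted back from the start, TGACATCA began 67 bases before the JUN start and 123 bases before the first ATF3 start, and 2.37% of the 35116 listed promoters hold it in these 250 bases. TGACGTCA began 200 bases before the JUND start (1.65% of promoters). TGACTCA was found in none of the 9 member sequences (4.2% of promoters). TATAAA began 33 bases before the FOS start, 30 before FOSB 31 before JUNB and 230 before the second ATF3 start, and 10.7% of promoters hold it. CCAAT, on either strand, was found before JUN, JUNB, JUND and the first ATF3 start, against 32.0% of promoters, and TGACG, which lies inside the CRE, before FOS, FOSB, FOSL2, JUN, JUNB and JUND, against 21.2%. The BATF sequence held none of the motifs. G and C made up 62.0% of the JUN sequence, 74.8% of JUND, 64.8% of FOS and 65.6% of FOSB, but 49.2% and 44.8% of the ATF3 sequences and 43.2% of BATF, beside a median of 58.0% over all listed promoters. The ATF3 values are those of its listed starts only, and other starts of the gene were not examined. A match to letters is a description of the reference sequence and not evidence of binding.

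The peak lists differed between groups in ways that reach every window. Lists held between 45748 and 62414 peaks and covered 20.4 ± 4.40 Mb in parental and 27.7 ± 4.24 Mb in resistant libraries (SD, n = 6 each). The median peak was 205 to 298 bp wide in parental and 318 to 428 bp in resistant lists, and the smallest peak, which follows the fragment length, was 67 to 87 bp against 94 to 124 bp. Relative depth, with the shallowest library at 1, averaged 1.91 in parental and 1.25 in resistant libraries. It is a recovered background divided by the smallest peak width, so it is not a measure apart from width. The background itself ran from 0.748 to 1.32 in parental and from 0.697 to 1.22 in resistant libraries, which overlap. Width, and depth derived with it, moved with phenotype. Their part in a phenotype difference cannot be told apart from that of the cells. They also moved with treatment of parental cells, where untreated and treated lists covered means of 23.7 and 17.2 Mb, with mean median widths of 271 and 214 bp and mean relative depths of 1.55 and 2.27 (n = 3 each). Of the markers fixed for the line, KRT8 and VIM had a peak at the start in 12 libraries, whereas the leukocyte gene PTPRC, the liver gene ALB and the acinar gene CELA3A had one in none. The monocyte gene CD14 had one in 9 libraries, SYP in 12 and RBFOX3 in 5, and PRSS1 and CPA1 in 1 library each.

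Most of the AP-1 starts examined had a peak in every library, as did 58.6% of protein-coding genes with a listed start. The exceptions were the listed starts of ATF3 and BATF and, after treatment of parental cells, that of FOSB. A peak lay within 1 kb of the start in 12 of 12 libraries for 7 members, namely FOS, FOSL1, FOSL2, JUN, JUNB, JUND and BATF3. FOSB had a start peak in 10 libraries: 3 of 3 untreated parental, 1 of 3 treated parental and all 6 resistant libraries. ATF3 had one at either listed start in 4 libraries and BATF in 1, a treated parental library. Starts of ATF3 other than the listed ones were not examined. A region inside that gene, chr1:212607970-212609190, was called in 12 libraries. Over the 15812 protein-coding genes with a listed start, 58.6% had a start peak in 12 libraries and 26.4% in none. The 250 bases printed for FOS, JUN and JUND were overlapped by a peak in 12 libraries and those for FOSB in 8, and those for ATF3 and BATF were overlapped in 0, in lists that reach down to a q of 0.1. Both ends of FOSL1 and BATF3 were used as possible starts, because the promoter table does not list them. A peak at either end counted, so these members were measured unlike the 58.6%. Among the 8 members with a listed start, FOS, FOSL2, JUN, JUNB and JUND had a start peak in every library.

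**Figure D1:**
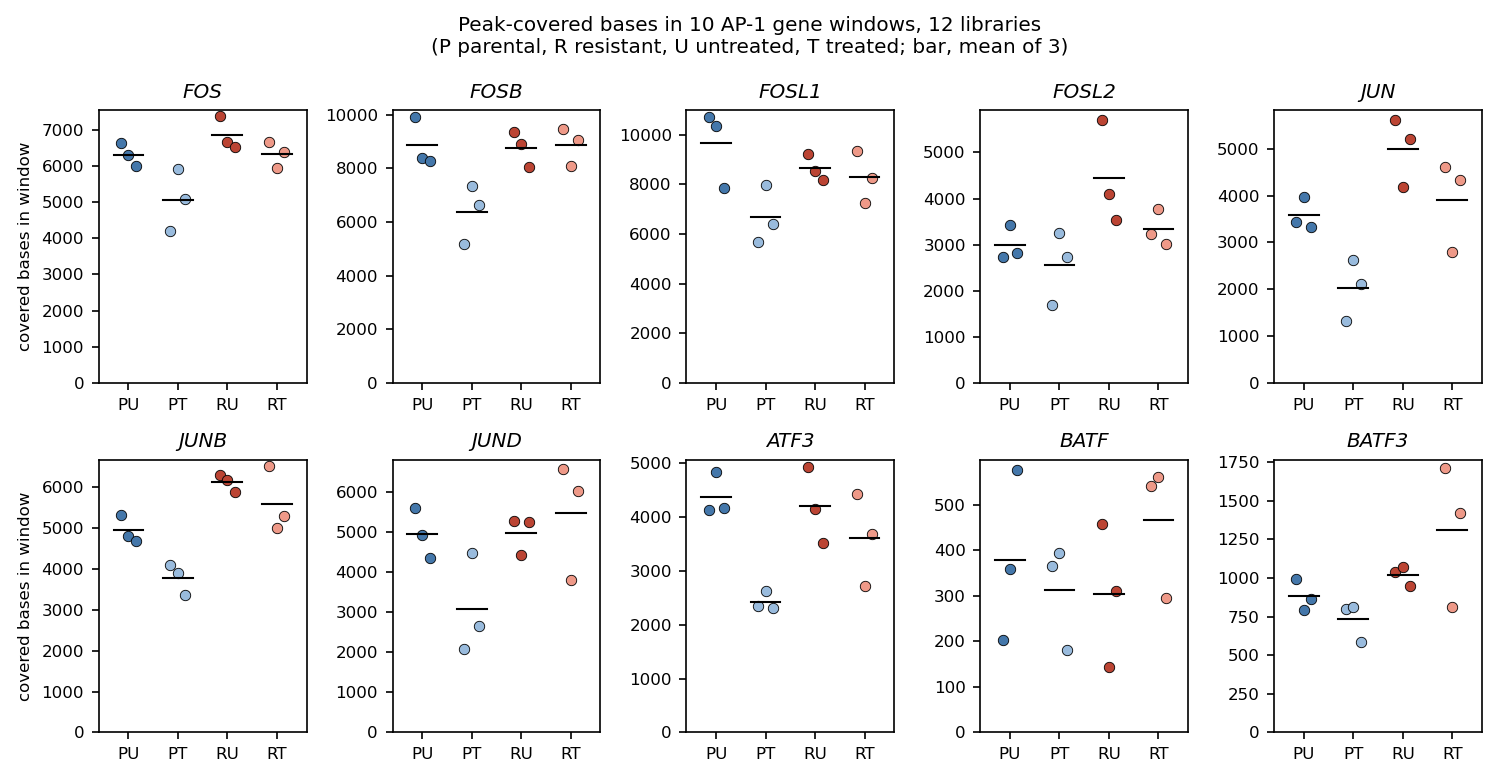
Peak-covered bases (vertical axis, starting at 0) in the window of each AP-1 gene, with 1 point per library and a bar at the mean of 3, for parental untreated (PU), parental treated (PT), resistant untreated (RU) and resistant treated (RT) cells. In JUN, JUNB and FOSL2 all 3 RU points lie above all 3 PU points. In JUN, JUNB, FOS, FOSB and ATF3 all 3 PT points lie below all 3 PU points.

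JUN, the main dimer partner of the FOS proteins, had the largest resistant to parental ratio of the 10 genes. Its gene lies at chr1:58780791-58784047 on the minus strand, with JUN-DT, a divergent non-coding gene, starting beside it. Peaks covered 3439, 3963 and 3334 bases of its window in untreated parental libraries and 1323, 2621 and 2119 in treated parental ones. In resistant libraries they covered 5607, 4191 and 5210 bases untreated and 4606, 2791 and 4335 treated. All untreated resistant libraries lay above all parental ones, and treated resistant replicate 2 lay among the parental values. The mean was 2800 ± 972 bases in parental and 4457 ± 977 in resistant libraries (SD, n = 6 each), a ratio of 1.59. The difference of 1657 bases had a two-sided exact permutation p of 0.005, the smallest that 400 assignments allow, and a Benjamini-Hochberg adjusted p of 0.0549 over the 50236 windows with a peak, so it did not pass 0.05. For treatment the difference was -1325 bases (exact permutation p = 0.015, adjusted p = 0.365).

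The JUN start itself was nearly alike in both cell types, and the difference lay in the gene's 3′ part and downstream of it. The start region, chr1:58783448-58785554, ranked in the top 2.79% to 9.36% of peaks by -log10 p in all 12 lists, and its mean differed by 63.7 bases of the 1657. The region at chr1:58779653-58781286, over the end of the gene and also called in 12 libraries, covered 864, 1302 and 1349 bases in untreated parental, 335, 848 and 700 in treated parental, 1562, 1633 and 1508 in untreated resistant and 1501, 878 and 1408 in treated resistant libraries. Untreated resistant libraries were the highest here, treated parental ones the lowest, and the mean difference by phenotype was 515 bases. Further downstream, the region at chr1:58768737-58769654 was called in 3 of 3, 1 of 3, 3 of 3 and 3 of 3 libraries of the 4 groups in the same order and differed by 345 bases. The region at chr1:58763198-58765153 was called in 9 libraries, 3 of 3, 2 of 3, 2 of 3 and 2 of 3 in that order, and differed by 482 bases. It was thus not called more often in resistant libraries. Where called, it covered 168 to 403 bases in parental and 635 to 1676 in resistant libraries. These regions lay 14393 and 18894 bases beyond the start, within the span of the non-coding gene LOC105378751. They ranked lower in the lists than the start, between 23.3% and 60.6% and between 59.5% and 95.5% where called.

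JUNB, which can act as a weaker activator than JUN, had the same exact p as JUN, but the difference lay at neighbouring genes. Its window, around the gene at chr19:12791486-12793315, was covered over 5334, 4800 and 4699 bases in untreated parental and 4109, 3898 and 3358 in treated parental libraries. Resistant libraries had 6298, 6176 and 5886 bases untreated and 6521, 4994 and 5301 treated. The groups did not overlap in either resistant to parental comparison, and the means were 4366 ± 712 and 5863 ± 599 bases (exact permutation p = 0.005, adjusted p = 0.0549). The region over the JUNB start, chr19:12791325-12791949, differed by -29.5 bases, whereas the 4 regions within 1 kb of another gene's start but not of JUNB's together differed by 1236 of the 1496 bases. The largest of these, chr19:12777516-12779472, lay within 1 kb of a start of HOOK2 and differed by 704 bases, and the next, near the starts of PRDX2 and THSD8, by 367. Those 4 regions made up 50.9% of the covered bases in this window, against 10.2% at the JUNB start.

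JUND, the JUN member that is made steadily rather than on stimulation, did not pass the test in either comparison. Its window held 5612, 4924 and 4354 bases in untreated parental, 2087, 4490 and 2656 in treated parental, 5280, 4428 and 5250 in untreated resistant and 6588, 3799 and 6023 in treated resistant libraries, and the groups overlapped in all 4 pairwise comparisons (difference by phenotype 1208 bases, exact permutation p = 0.14). The start region at chr19:18281142-18282456 was called in 12 libraries, in the top 2.15% to 10.3% of each list, and its mean differed by -121 bases. A region downstream at chr19:18271398-18272927, inside IQCN, covered at most 399 bases in every library except the 3 treated resistant ones, with 1339, 907 and 1061 bases.

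**Figure D2:**
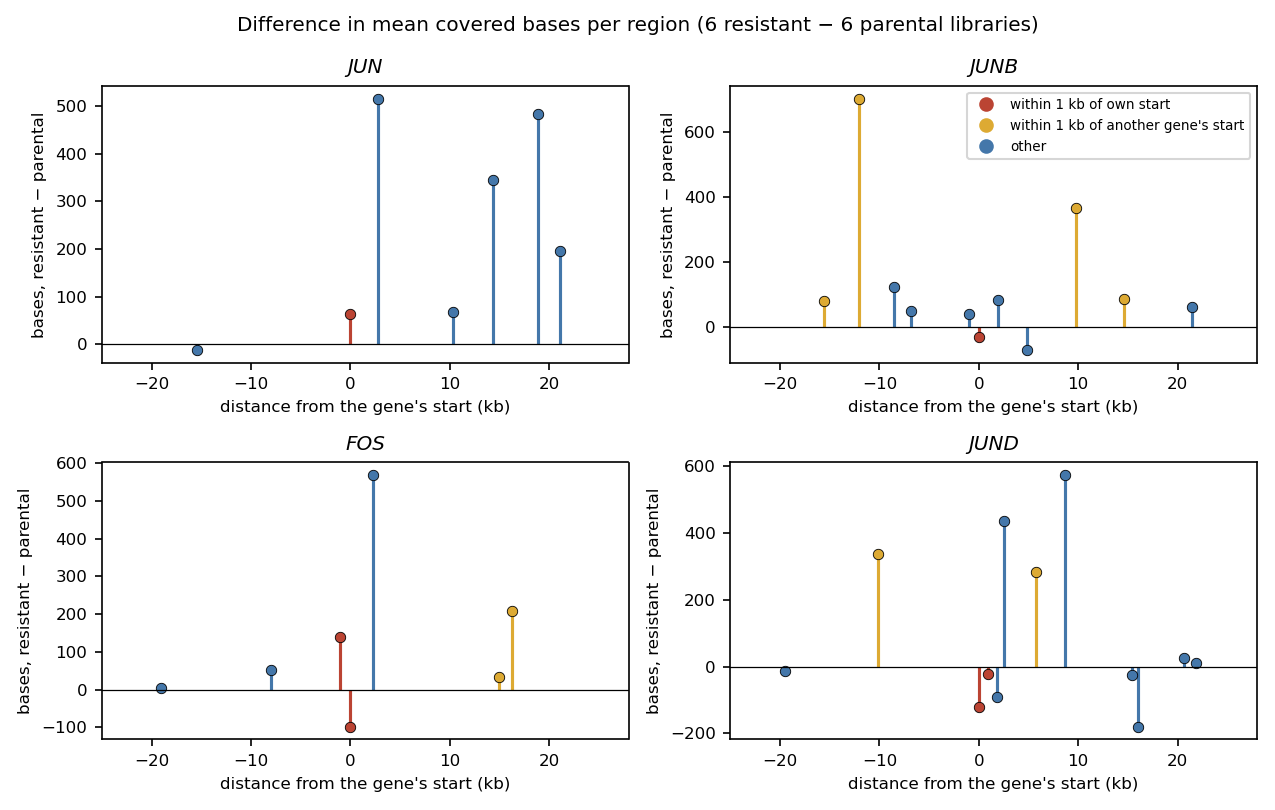
Difference in mean covered bases per region, 6 resistant minus 6 parental libraries (vertical axis), against the distance of the region from the gene's start in kb (horizontal axis, downstream positive), for JUN, JUNB, FOS and JUND; colour shows whether the region lay within 1 kb of the gene's own start, of another gene's start, or of neither, the own start taking precedence. The largest JUN differences (515, 482 and 345 bases) lie downstream of the start, and the largest JUNB difference (704 bases) lies at a neighbour.

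FOS, the prototype immediate early member, had the 2 most strongly ranked regions of the AP-1 windows, both outside the gene. The region at chr14:75258712-75259744, at -19084 bases from the start, ranked in the top 0.300% to 2.36% of each of the 12 lists, with a fold over local background of 7.45 to 9.38. The region at chr14:75293828-75294741, 15000 bases downstream and beside the start of LINC01220, ranked in the top 0.594% to 2.69%. Both were called in every library of every group, and their means differed by 4.67 and 33.8 bases between phenotypes. The window as a whole covered 6624, 6294 and 5995 bases in untreated parental, 4199, 5917 and 5092 in treated parental, 7378, 6662 and 6526 in untreated resistant and 6657, 5947 and 6394 in treated resistant libraries. Only the treated parental libraries stood below the others. The difference by phenotype was 907 bases (exact permutation p = 0.015, adjusted p = 0.0758), of which 568.5 lay in a broad region over the end of the gene at chr14:75281092-75284478. By treatment it was -879 bases (exact permutation p = 0.015, adjusted p = 0.365).

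FOSB, a close relative of FOS at chr19:45467996-45475179, had a weak start and stronger regions to either side. The start region, chr19:45467562-45468425, covered 734, 778 and 122 bases in untreated parental libraries and 490, 0 and 0 in treated parental ones. In resistant libraries it covered 379, 479 and 209 bases untreated and 734, 542 and 818 treated. The start peak was thus missing only in treated parental replicates 2 and 3, while all treated resistant libraries kept at least 542 bases. Over the whole window the values were 9921, 8365 and 8282 in untreated parental, 5185, 7321 and 6648 in treated parental, 9353, 8917 and 8044 in untreated resistant and 9445, 8072 and 9063 in treated resistant libraries. Treatment thus differed by -2471 bases in parental and 88.7 in resistant cells, but the test of that interaction (2560 bases) gave an exact permutation p of 0.055 and an adjusted p of 0.963.

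FOSL1, the FOS-related subunit that lacks a transactivation domain, had, with FOSB, the most covered window. Its window held 25 regions, 10 of them in all 12 libraries, and values of 10732, 10360 and 7864 bases in untreated parental, 5687, 7974 and 6408 in treated parental, 9230, 8545 and 8179 in untreated resistant and 9341, 7246 and 8254 in treated resistant libraries. The groups overlapped in all 4 pairwise comparisons (difference by phenotype 295 bases, exact permutation p = 0.695, turning to -152 without untreated parental replicate 3). The region at its higher-coordinate end, chr11:65900143-65900822, ranked in the top 1.01% to 3.86% of every list. Regions within 1 kb of the start of a neighbouring gene, but of neither end of FOSL1, made up 33.0% of the covered bases. The region over its lower-coordinate end, chr11:65890384-65892389, also lay within 1 kb of the CCDC85B start. That region was counted with FOSL1, so the 33.0% leaves it out.

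FOSL2, a further FOS-related subunit, was covered mostly at its start. The region at chr2:28390115-28393159 was called in 12 libraries and held 69.2% of the covered bases of the window. The window held 2735, 3429 and 2817 bases in untreated parental and 1694, 3253 and 2730 in treated parental libraries, against 5711, 4108 and 3543 in untreated resistant and 3237, 3767 and 3014 in treated resistant ones. The untreated groups did not overlap, and the treated groups did (difference by phenotype 1120 bases, exact permutation p = 0.02, adjusted p = 0.0842). A region downstream of the gene, chr2:28418911-28421008, gave 542 of these bases; it was called in 8 libraries, and 1868 bases came from untreated resistant replicate 1 alone.

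ATF3, a stress-induced partner that often represses, had no peak over either listed start, and its strongest region lay inside the gene. That region, chr1:212607970-212609190, lay at -5828 bases from the second listed start and ranked in the top 3.08% to 9.42% of all 12 lists. Whether it holds a start of ATF3 that is not listed was not examined. The window covered 4133, 4825 and 4170 bases in untreated parental, 2354, 2617 and 2307 in treated parental, 4929, 4140 and 3512 in untreated resistant and 4427, 2714 and 3688 in treated resistant libraries. Treated parental libraries stood below every other library (treatment difference -1267 bases, exact permutation p = 0.025, adjusted p = 0.365), and the untreated groups overlapped.

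BATF and BATF3, the smaller leucine zipper proteins known from lymphocytes and dendritic cells, had the least covered windows. BATF, at chr14:75522469-75546992, had between 144 and 577 covered bases and 1 to 3 peaks per library, in a window with 8 regions. Only the region at chr14:75560930-75561409, 38461 bases beyond the start, was called in 12 libraries. BATF3 had between 587 and 1709 covered bases, of which 92.6% lay within 1 kb of a gene end, in 2 regions near its higher-coordinate end that were both called in 12 libraries. Its phenotype means were 808 ± 132 and 1165 ± 334 bases (exact permutation p = 0.025, adjusted p = 0.0939), with the highest values, 1709 and 1417 bases, in treated resistant replicates 1 and 3.

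The question of phenotype, whether AP-1 loci were more open in the resistant population, was then put to all 10 windows together. No window passed an adjusted p of 0.05 by the stratified exact permutation test, where 0% of all windows did. At an unadjusted p under 0.05, 5 of 10 members (JUN, JUNB, FOS, FOSL2 and BATF3) had more covered bases in resistant libraries, where 34.2% of all windows and 46.3% of protein-coding ones did. All 10 differences were positive, as were 39221 of the 50236 tested and 17022 of the 19012 protein-coding ones. The median ratio of resistant to parental means was 1.30 for the 9 members with a mean of at least 500 bases and 1.35 for all such windows. In untreated cells 3 of 10 windows were higher in resistant libraries with no overlap (JUN, JUNB and FOSL2) beside 14.4% of all windows and 18.4% of protein-coding ones. In treated cells 5 of 10 were (FOS, FOSB, JUN, JUNB and ATF3) beside 39.5% and 52.7%. With 3 against 3 libraries the smallest exact permutation p is 0.1, so these are given as counts.

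**Figure D3:**
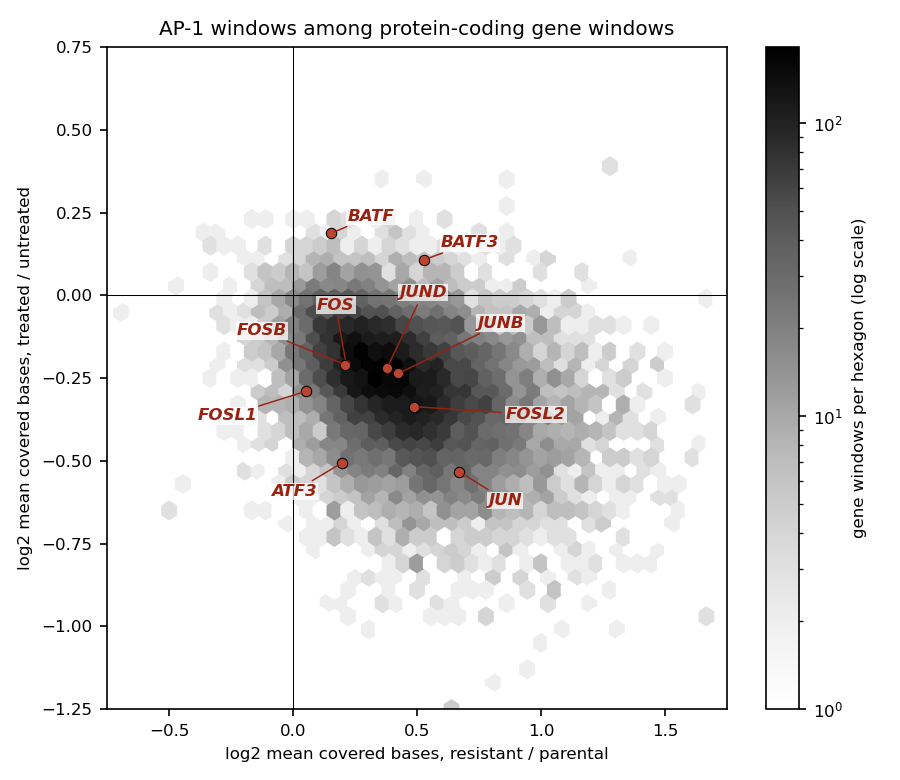
Ratio of mean covered bases on log2 scales, resistant over parental (horizontal axis) against treated over untreated (vertical axis), for protein-coding gene windows with a mean of at least 500 bases (grey hexagons, log colour scale; windows outside the axes are not drawn) and the 10 AP-1 windows (red). Most AP-1 points lie within the dense part of the cloud, to the right of 0 and below 0, with JUN toward its lower right side.

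Because resistant lists covered more bases everywhere, covered bases were also divided by the covered length of the library's own list. On that scale 7 of the 10 phenotype differences changed sign (FOS, FOSB, FOSL1, JUNB, JUND, ATF3 and BATF), and JUN, FOSL2 and BATF3 stayed positive. JUN covered 133 bases per Mb of list in parental and 160 in resistant libraries, a ratio of 1.20 (exact permutation p = 0.015), where 8.56% of all windows were higher in resistant libraries at p under 0.05. With scaling to the smallest peak width instead, the JUN difference was 561 bases (exact permutation p = 0.1). FOSL1 had 398 and 308 bases per Mb (exact permutation p = 0.005), FOS 282 and 241 (exact permutation p = 0.02) and FOSB 374 and 322 (exact permutation p = 0.04), all lower in resistant libraries, where 7.38% of all windows were. FOSL1 ran from 350 to 429 in parental and from 274 to 340 bases per Mb in resistant libraries, with no overlap. None of the scaled differences passed after Benjamini-Hochberg adjustment over all windows in the exact permutation test (JUN adjusted p = 0.189, FOSL1 adjusted p = 0.133). The direction for FOS, FOSB, FOSL1, JUNB, JUND, ATF3 and BATF thus depended on the scale. That for JUN, FOSL2 and BATF3 was positive on all 3 scales. Per Mb of list, however, the ratio was only 1.04 for FOSL2 (exact permutation p = 0.745) and 1.03 for BATF3 (exact permutation p = 0.825). JUNB, at 0.978 (exact permutation p = 0.855), and JUND, at 0.980 (exact permutation p = 0.825), were close to 1 on the other side.

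**Figure D4:**
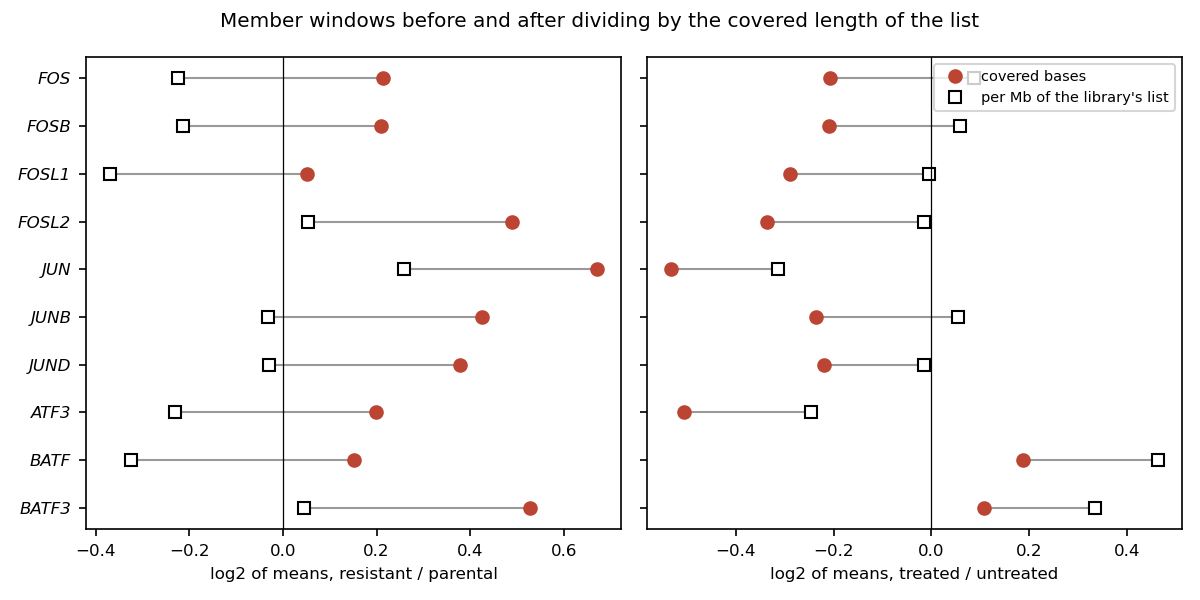
Ratios of means on a log2 scale for resistant over parental (left) and treated over untreated (right) in each AP-1 window, from covered bases (red circles) and from covered bases per Mb of the library's own list (open squares). JUN, FOSL2 and BATF3 keep their side of 0 in both panels, whereas FOS, FOSB and JUNB cross 0 in both.

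The question of treatment was whether the AP-1 loci closed or opened with oxamate. Again no window passed an adjusted p of 0.05, where 0% of all windows did. At an unadjusted exact permutation p under 0.05, 4 of 10 members (JUN, FOS, ATF3 and JUNB) had fewer covered bases in treated libraries, where 11.7% of all windows and 15.8% of protein-coding ones did. The median ratio of treated to untreated means was 0.849 for the members and 0.835 for all windows. In parental cells the treated libraries lay below the untreated ones without overlap for FOS, FOSB, JUN, JUNB and ATF3, 5 of 10 windows beside 29.6% of all and 40.2% of protein-coding ones. The treated parental lists were also the shorter ones, as given above, and the part of list length in this count was not tested. In resistant cells this held for 0 of 10 windows beside 3.72% of all and 4.27% of protein-coding ones. Each phenotype's treatment comparison has its own controls, and the interaction, which tests the difference between them, gave 0 of 10 at an adjusted p under 0.05 (0% of all windows) and 0 of 10 at an unadjusted p under 0.05 (3.38%). Scaled to the covered length of the list, JUN remained lower in treated libraries, with 163 bases per Mb untreated and 131 treated (exact permutation p = 0.005, adjusted p = 0.745), where 3.01% of all windows were lower and 2.68% higher at p under 0.05. ATF3 had 165 and 139 bases per Mb (exact permutation p = 0.055), while FOS, FOSB and JUNB changed sign. ATF3 and JUN were also the members with the lowest unscaled ratios, 0.704 and 0.691.

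**Figure D5:**
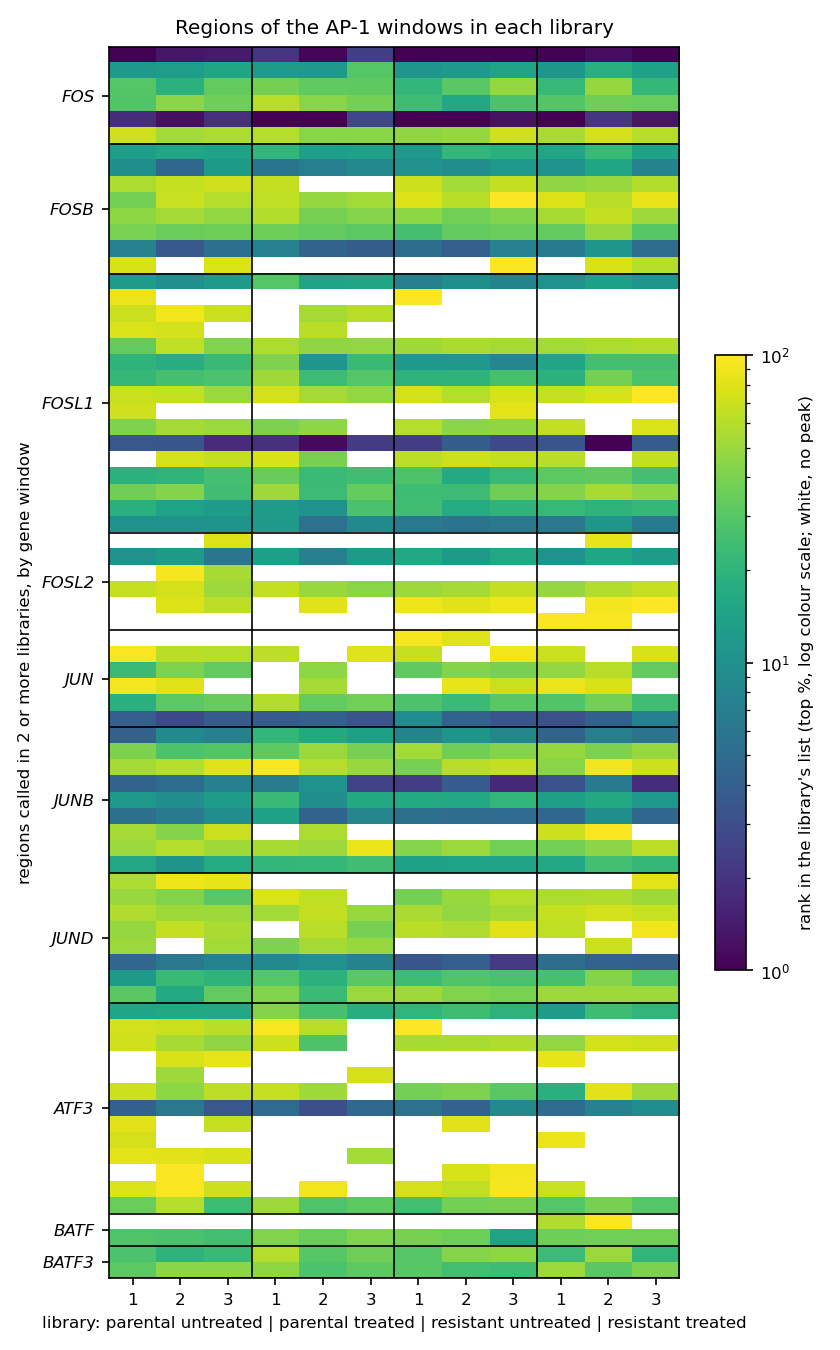
Each line is 1 region called in at least 2 libraries, ordered by position within its gene window; columns are the 12 libraries in 4 groups, colour gives the rank of the peak in its library's list by -log10 p (top percent, log scale, values under 1 drawn as 1) and white means no peak. The darkest lines, in FOS, run through all 12 libraries. Lines that are white in all 6 resistant libraries lie in FOSL1, FOSL2 and ATF3. Lines that are white in all 6 parental libraries lie in JUN, FOSL2 and BATF.

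Merging the peaks of all lists gave 121 regions in the AP-1 windows, of 178040 in the genome. Of these, 44 were called in 12 libraries (36.4%, beside 13.6% of all regions) and 45 in 1 library (37.2%, beside 59.5%). All regions include those far from genes, and the share over the windows of other genes was not computed. JUNB had 8 of 11 regions in every library, FOS 6 of 7, FOSB 6 of 10, FOSL1 10 of 25 and JUND 4 of 12, whereas ATF3 had 3 of 20 and FOSL2 2 of 16. Regions that separated 3 libraries from 3 others completely were few. In untreated cells 4 of the 96 AP-1 regions called in those 6 libraries were called in all parental and no resistant ones, beside 0.412% of all such regions, and 0 of 96 were gained, beside 0.652%. These were chr11:65879510-65880282 (FOSL1 window), chr19:12796382-12796778 (JUNB), chr19:18264451-18265578 (JUND) and chr1:212616653-212617337 (ATF3). On treatment of parental cells 1 of 100 was lost, the JUND region, beside 1.21%, and 0 were gained, beside 0.153%. Treatment of resistant cells gave 0 of 89 lost and 0 gained, beside 0.276% and 0.239%, and the treated resistant against parental comparison 0 of 93 in both directions, beside 0.638% lost and 2.07% gained.

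Of these 4 regions, those in the FOSL1 and ATF3 windows were absent from all resistant libraries. The JUNB region was also called in treated parental replicate 2 and in treated resistant replicates 1 and 2, and the JUND region in treated resistant replicate 3. The FOSL1 region, inside the neighbouring gene CTSW, covered 514, 590 and 156 bases in untreated parental, 0, 324 and 160 in treated parental and 0 in each of 6 resistant libraries. It was the 1 of 6 AP-1 regions testable by Fisher's exact test with an unadjusted p under 0.05 for phenotype (Fisher's exact p = 0.0152, adjusted p = 0.133), beside 2.7% of tested regions lower in resistant libraries at that p and 0% after adjustment. For treatment 0 of 6 passed unadjusted, beside 1.34% lower in treated libraries, and 0% of all regions passed after adjustment. The ATF3 region, 1635 bases beyond the second listed start, covered 203, 685 and 179 bases in untreated parental, 318 in treated parental replicate 3 and 0 elsewhere. The best rank in a list was the top 42.9% for the JUNB region, 52.3% for ATF3, 53.7% for FOSL1 and 57.0% for JUND. Relative depth was 1.53, 1.33 and 1.77 in the untreated parental and 1.42, 1.85 and 1.01 in the untreated resistant libraries, which overlap. In the same groups the median peak width, 226 to 298 bp and 320 to 428 bp, did not overlap. Nor did the smallest peak, 75 to 87 bp and 98 to 124 bp. The part of depth or width in these regions was not tested.

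The other genes of the pathway are described by 4 lists, in which no window passed after adjustment. As a background, 8804 of 19012 tested protein-coding windows (46.3%) had more covered bases in resistant libraries at an unadjusted exact permutation p under 0.05. The median ratio of protein-coding windows was 1.35. The difference was positive, at any p, in 17022 of the 19012, so most windows of any list would be positive. Of 10 other basic leucine zipper partners, 7 had more covered bases in resistant libraries at an unadjusted exact permutation p under 0.05, and 10 of 10 differences were positive. The largest was that of NFE2L2, the antioxidant regulator, with 4775 ± 919 and 6614 ± 1163 bases (SD, n = 6 each, exact permutation p = 0.005), and the smallest that of BATF2, with 2445 and 2779 (exact permutation p = 0.105). Of 19 upstream kinases, phosphatases and factors, 12 did at that p, and 17 differences were positive. DUSP1, a phosphatase that switches off MAP kinases and is itself an immediate early gene, had 4148 ± 856 and 6248 ± 923 bases (SD, n = 6 each, exact permutation p = 0.005, adjusted p = 0.0549). DUSP10, which acts on the stress kinases, had 815, 385 and 159 bases in untreated parental, 0, 293 and 0 in treated parental and 0 in all 6 resistant libraries (exact permutation p = 0.05). Of 8 other immediate early genes, 6 did at that p and all 8 differences were positive, the largest for NR4A1 at 4999 and 6575 bases (exact permutation p = 0.01) and the smallest for EGR3 at 4733 and 5091 (exact permutation p = 0.57). Of 18 AP-1 target genes, 9 did at that p and all 18 differences were positive, the largest for the adhesion receptor CD44 at 3999 ± 1505 and 6902 ± 2526 bases (exact permutation p = 0.01) and the smallest for the protease gene MMP3 at 41.7 and 50.5 (exact permutation p = 0.85). The median ratios of resistant to parental means were 1.35, 1.40, 1.33 and 1.45 in these 4 lists, in that order. On treatment, 2 of 10, 6 of 19, 4 of 8 and 4 of 18 of these lists had fewer covered bases at an unadjusted p under 0.05, beside the 15.8% of protein-coding windows. A difference in these bulk libraries can come from more cells with an open region or from a region more open per cell, which cannot be told apart.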

How the data were processed

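Peak lists of 12 ATAC-seq libraries were used, and groups and replicate numbers came from the sample titles. The authors aligned reads to hg38 with Bowtie2 2.1.0 (per the submitters' processing notes), discarded reads that were mitochondrial, duplicated or not uniquely placed, and ran MACS2 for broad peaks on the fragments of each library without pooling; its version is not given in the sources used here. For every peak the deposited lists hold its position, a score, the fold over local background and -log10 values of p and q. These values belong to 1 list and were used to rank, filter and describe its peaks. The lists hold no read counts, so the depth is known only as a ratio between libraries. It is the background recovered from fold and -log10 p, divided by the smallest peak width of the list. No counting interval was derived.

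Peaks outside chromosomes 1 to 22 and X (0.892%) were left out. Bases covered by peaks were summed per library in every RefSeq gene span (GRCh38.p14 table, whose coordinates match hg38) with 20 kb to each side. A wide peak counts for more than a narrow one, so covered bases follow the fragment length and width of a list, and windows of neighbouring genes overlap and are not independent. The 50236 windows with a peak in at least 1 library were tested by two-sided exact permutation of labels within strata (400 assignments, smallest p 0.005) for phenotype, treatment and interaction, with Benjamini-Hochberg adjustment over all windows (threshold 0.05). The smallest adjusted p was 0.0549, 0.357 and 0.963. Overlapping peaks of the 12 lists were merged into regions, and those called in 5 to 7 libraries were tested by Fisher's exact test. Ranks are percentiles of a list by -log10 p. No 2 lists shared more than 0.854% of peak bounds.

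The members, the gene lists, the markers and the named genes (each member, its best-ranked region, regions in 3 of 3 against 0 of 3 libraries or with a Fisher p under 0.05, and the largest and smallest phenotype difference of each other list) were chosen with earlier results of these data known. Other regions named, at JUN, JUNB, JUND, FOS, FOSB and FOSL2, were chosen after their values were seen. Alternatives were a minimum -log10 q of 3, the 45748 top peaks per list, other flanks, protein-coding genes, scaling to the covered length of the list, limma 3.58.1 on log2 of covered bases plus 200, a replicate block, other region rules, and each library left out; scaling to the smallest peak width was added after seeing the data. Scripts were tested on simulated data. Python 3.11.15, numpy 2.4.6, scipy 1.17.1 and R 4.3.3 were used.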

Additional observations from a re-analysis of the deposited data

How the results depend on the processing

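The number of AP-1 windows called by phenotype was 0 as reported. It became 5 at a minimum -log10 q of 3 (JUN, JUNB, FOS, FOSL2 and JUND, where 32.2% of all windows were called), 2 with the same number of top peaks per list (JUN and JUNB, 20.1%), 2 with 50 kb to each side (JUN and JUNB, 11.4%), 2 with protein-coding genes only (JUN and JUNB, 21.1%) and 3 by limma (JUN, JUNB and FOSL2, 28.1%). With 1 library left out it ranged from 0 to 2, and it was 2 (JUN and JUNB) without untreated resistant replicate 2 or treated resistant replicate 2. The smallest adjusted p as reported was 0.0549, close to the threshold of 0.05. AP-1 regions called by phenotype went from 0 to 1 at that minimum, namely chr2:28413041-28414050 inside FOSL2. Calls by treatment and interaction stayed at 0 under every alternative run, and the number of genes with a start peak in 12 libraries ranged from 6 to 9, with 7 as reported.

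Scaling to the covered length of the list reversed the phenotype difference of ATF3 (-586 bases), FOSL1 (-2163), FOS (-978), BATF (-86.3), JUNB (-116), JUND (-93.0) and FOSB (-1232), and the treatment difference of FOS (382), JUNB (194) and FOSB (342). Scaling to the smallest peak width, chosen after seeing the data, reversed the phenotype difference of ATF3 (-629), FOSL1 (-2260), FOS (-1006), BATF (-87.4), JUNB (-96.9), JUND (-204) and FOSB (-1318). BATF3 by treatment became -32.0 at a minimum -log10 q of 3, BATF by treatment -110 with 50 kb to each side, and with 1 library left out the ranges were -25.8 to 198 for BATF3 by treatment (lowest without treated resistant replicate 1), -5.42 to 88.1 for BATF by phenotype (lowest without untreated parental replicate 1) and -152 to 616 for FOSL1 by phenotype (lowest without untreated parental replicate 3). The part of peak width in these reversals was not tested beyond the scalings themselves.

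The libraries share only a replicate number. Deviations from group means correlated between -0.181 and 0.226 over 18 pairs with the same number, with 2 pairs over 0.1, and 5 of 12 libraries had their best partner under their own number. With the replicate block 0 AP-1 windows were called by phenotype, treatment or interaction, and the smallest exact permutation p in that fit is 0.03125. Absolute depth is unknown, so a region without a peak was below the threshold of its list and is not shown to be closed.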

Other observations

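The AP-1 windows differ in how much of their covered length belongs to the neighbourhood of the gene and not to the gene. Regions within 1 kb of another gene's start, but not of the member's own, made up 50.9% of the covered bases in the JUNB window, 46.9% in JUND, 33.0% in FOSL1, 20.2% in FOS and 11.6% in FOSB, and 0% in JUN, FOSL2, BATF and BATF3. Both ends of FOSL1 counted as its own start, so its 33.0% leaves out the region beside the CCDC85B start. The windows of JUND and JUNB hold 5 other genes each and that of FOSL1 6, whereas the JUN window holds 2 (JUN-DT and LOC105378751), both non-coding. Own starts took from 2.26% of the covered bases in BATF and 2.73% in ATF3 to 69.2% in FOSL2 and 92.6% in BATF3. Only the listed starts of ATF3 were counted, and both gene ends of BATF3.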
